A study of Bos taurus with 24 samples.

Results

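In monocyte-derived macrophages (MDMs) of Holstein cows, 51 of the 24616 annotated genes measured were lower in wells exposed to E. coli than in control wells both early, at 3 h, and late, at 18 h. A gene was counted when its response was at or below -1.5 at each hour, which is a level at least 2.83-fold lower after exposure. The response is the log2 CPM (read counts scaled to the library size) in the exposed well minus that in the control well of the same cow, averaged over 6 pairs of wells per hour. Members also needed a mean of at least 5 CPM in control or in exposed wells at each hour, which 9239 genes had. TPCN1, RAB38, E2F1 and RBL1 were left out beforehand, and 0 of these 4 would have met the thresholds. The members were thus selected on the mean responses at 3 h and 18 h, which are described below without a test. The comparisons of high with low responder cows did not enter the choice and were tested.

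MDMs were grown from blood mononuclear cells of lactating Holstein cows for 6 days with 5 ng/ml GM-CSF, a growth factor that drives monocytes towards macrophages. Cows had been placed in a high or a low responder group by how much nitric oxide their MDMs made in response to E. coli. The same 6 cows, 3 in each responder group, gave cells for both hours: per cow and hour, 1 well was left as control and 1 received E. coli inactivated with paraformaldehyde, at 5 bacteria per cell. Each of the 8 groups (high or low responder, control or exposed, 3 or 18 h) held 3 libraries, each library from 1 cow, and control and exposed libraries of an hour were paired by the code number in their names. The code numbers differ between the hours. At 3 h they were 92, 93 and 94 for high and 91, 92 and 93 for low responders. At 18 h they were 91, 93 and 94 for high and 91, 92 and 94 for low responders. The same number at both hours need not mark the same cow. Letters after the numbers recur once per hour within a responder group (A and B, I and J, M and N in high, A and B, E and F, I and J in low responders). They may mark the cow, but the labels do not say so, and the letters were not used. The hours were therefore analysed separately, and the 12 pairs of wells are not 12 cows. The cells were grown without serum outside the animal and met dead bacteria, which limits them as a model of an udder infection.

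Macrophages sense the lipopolysaccharide of Gram-negative bacteria through the Toll-like receptor TLR4, and within hours they switch on cytokine, chemokine and antimicrobial genes. At the same time they lose transcripts of the resting state, among them surface receptors, adaptor proteins of receptor signalling and transcription factors. A transcript falls when its gene is transcribed less, when it is degraded faster, or both, and a level in whole RNA does not separate these.

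Library totals ranged from 6297190 to 20936554 expected counts. Of 10 macrophage markers 6 could be matched to an identifier, and they were abundant (CD68 at 1442 to 2493 TPM in control wells, TPM being a relative abundance per transcript length). CD79A of B cells, PRF1 of NK cells and KDR of endothelium were each the only matched gene of their list. They reached at most 2.3, 1.01 and 0.38 TPM in control wells and 2.67, 2.5 and 0.88 TPM in exposed wells. The other marker lists (T cell, dendritic cell, neutrophil, platelet and fibroblast) had 0 genes with a matched identifier. Fewer cells that carry a transcript and less of it per cell cannot be told apart in these bulk samples. The high responder pair coded 94 at 3 h stood apart for several members. In some of them, such as GCNT4, its control well was low, while in GPR34 its exposed well was the lowest among high responders. The mean responses at 3 h include this pair. The number of members called at 3 h for a different response between responder groups is given with and without it.

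The deposited files carry identifiers and no symbols. A symbol was found for 14 of the 51 members (27.45%), in listings of the study that were partly shortened. Among genes with at least 5 CPM at both hours, 56.2% of those with a symbol and 9.40% of those without had an unadjusted p under 0.05 for the difference between responder groups at 18 h. At 3 h these shares were 20% and 12.3%. The 14 genes named here are therefore not a random draw of the 51, and nothing is read from counts over the named genes at either hour.

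The members lost most of their transcripts at both hours. The median response of the 51 genes was -1.89 at 3 h and -2.36 at 18 h, beside medians of -0.02 and 0.00 over all 9239 genes. In terms of mean CPM, the exposed wells kept between 7.59% and 37.4% of the control level at 3 h (median 24.9%) and between 0.512% and 36.1% at 18 h (median 19.5%). Together the 51 genes made up 1176 to 2285 TPM in the 12 control libraries (median 1545) and 228.9 to 408 TPM in the 12 exposed libraries (median 289.8), so that the ranges of their sum did not overlap.

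Few genes were repressed at both hours. The threshold was passed by 95 genes at 3 h (1.03% of 9239), by 541 genes at 18 h (5.86%) and by 51 at both (0.552%), so that members were 53.7% of the early list and 9.43% of the late list. The opposite pattern, a response of 1.5 or more at both hours, was found in 229 genes (2.48%). The plot of 3 h against 18 h responses shows the members in its lower left corner.

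**Figure D1:**
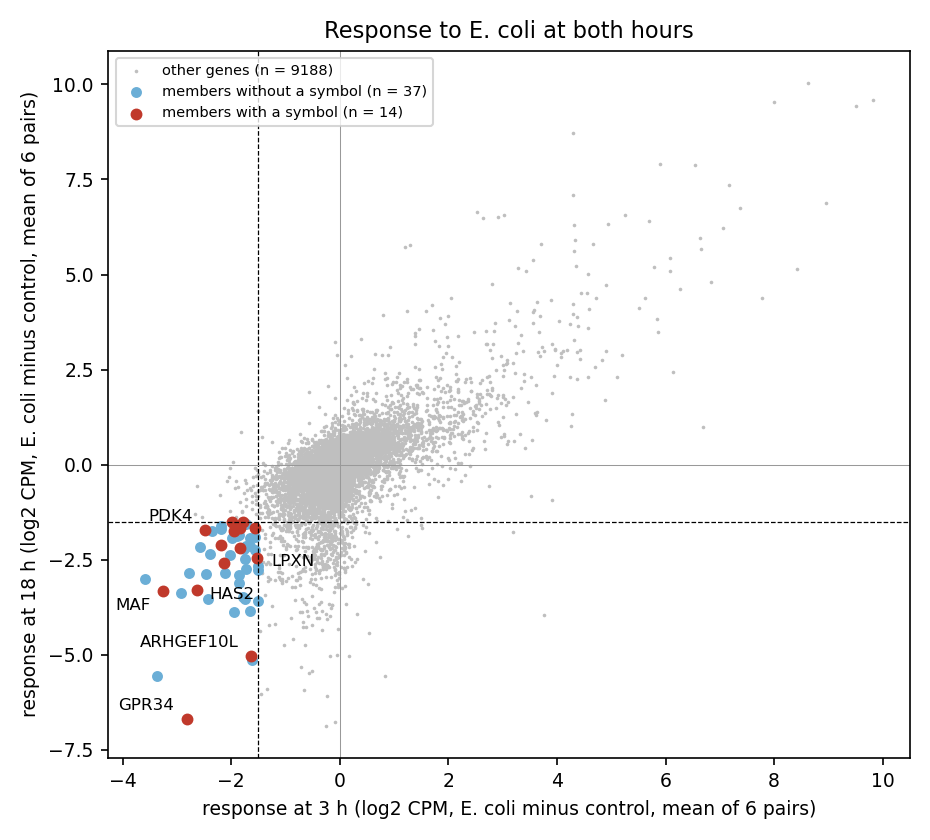
Each point is 1 of 9239 genes, with its response to E. coli at 3 h (x axis) and at 18 h (y axis), both in log2 CPM as exposed minus control and averaged over 6 pairs of wells. Dashed lines mark -1.5, and the 51 members lie below and left of both, 14 with a symbol (red) and 37 without (blue), with GPR34 lowest at 18 h (-6.68).

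All 51 members were lower in the exposed well in each of the 12 pairs. The 6 exposed libraries all lay below the 6 control libraries in 35 members at 3 h (background over 9239 genes 5.51%) and in 47 at 18 h (background 17.6%). The count of pairs and this separation both use the contrast that chose the genes, and they are given as a description only. The median response of the members within a pair ran from -1.48 (low responder 91) to -2.63 (high responder 93) at 3 h, and from -1.88 (low responder 94) to -2.91 (high responder 94) at 18 h.

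Most members were lower at 18 h than at 3 h. The response was deeper at 18 h in 33 and shallower in 18, and it moved down by more than 1 log2 unit in 15 and up by more than 1 in 0. A response of -3 or less was seen in 3 members at 3 h and in 15 at 18 h. The 18 h response minus the 3 h response was lowest in GPR34 (-3.86), followed by a gene without a symbol and ARHGEF10L (-3.39). It was highest in PDK4 (0.77), which kept 17.6% of its control level at 3 h and 30.1% at 18 h.

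GPR34 (ENSBTAG00000020144), a G protein-coupled receptor for lysophosphatidylserine that marks microglia and tissue macrophages, had the lowest mean response of all members. In control wells at 3 h it stood at 61.7, 90.8 and 51.2 CPM in high responders and at 13.2, 24.4 and 35.2 CPM in low responders. In exposed wells it stood at 13.9, 19.5 and 5.22 CPM in high responders and at 1.05, 3.80 and 3.45 CPM in low responders. Within each responder group all exposed wells were below all control wells, but the exposed wells of high responders 92 and 93 were above the control well of low responder 91. At 18 h the control wells held 50.6, 45.1 and 77.3 CPM in high and 30.0, 14.9 and 25.1 CPM in low responders. The exposed wells held 0.0825, 0.271 and 0.128 CPM in high and 0.271, 0.210 and 0.281 CPM in low responders. The receptor was thus near the limit of detection in all 6 exposed wells, which held 16 expected counts in all against 3367 in the control wells. The response was -2.82 ± 0.57 at 3 h and -6.68 ± 1.08 at 18 h (SD, n = 6 pairs), and 0.512% of the control level was left at 18 h.

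CD180 (ENSBTAG00000006360), a surface protein related to Toll-like receptors that tunes the response to lipopolysaccharide, was the other receptor with a symbol. It had the weakest mean response of the 51 genes, -1.56 ± 0.42 at 3 h and -1.66 ± 0.72 at 18 h (SD, n = 6 pairs). At 3 h the control wells held 16.4, 6.06 and 10.8 CPM in high and 13.9, 36.3 and 56.5 CPM in low responders, against 3.57, 2.64 and 4.95 CPM and 4.92, 9.22 and 19.0 CPM in the exposed wells. Low responders 92 and 93 kept more CD180 after exposure than the control well of high responder 93 held, so that control and exposed libraries overlapped at 3 h. They overlapped at 18 h too, where high responder 93 lost the least (18.1 CPM in control, 13.5 CPM in the exposed well).

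Proteins that relay signals from receptors formed the next group. DOK2 (ENSBTAG00000003341), a docking protein that dampens signalling downstream of tyrosine kinases, was the most abundant member with a symbol at 101 TPM in control wells, and it had 20.2 TPM at 3 h and 27.0 TPM at 18 h after exposure. Its response was -1.94 ± 0.42 and -1.74 ± 0.52 (SD, n = 6 pairs). SASH3 (ENSBTAG00000002041), an adaptor with SH3 and SAM domains of blood cells, had a like response at both hours, -2.18 ± 0.58 and -2.11 ± 0.38. For both genes the 6 exposed libraries lay below the 6 control libraries at each hour.

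LPXN (ENSBTAG00000036260), or leupaxin, is a relative of paxillin at the adhesion sites of blood cells. Its control wells at 18 h were close together, at 51.5, 54.2 and 47.6 CPM in high and at 55.0, 53.6 and 48.6 CPM in low responders. The exposed wells held 8.75, 8.31 and 3.85 CPM in high and 12.1, 16.3 and 11.8 CPM in low responders. All 3 high responders therefore ended below all 3 low responders after exposure, from a common starting level. The response was -1.53 ± 0.41 at 3 h and -2.45 ± 0.65 at 18 h (SD, n = 6 pairs).

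ARHGEF10L (ENSBTAG00000000684) was the least abundant named member (8.07 TPM in control wells). It was among the weaker responses at 3 h (-1.63 ± 0.61, SD, n = 6 pairs), with control and exposed libraries overlapping, and among the strongest at 18 h (-5.02 ± 0.73). At 18 h the control wells ranged from 10.2 to 31.5 CPM and the exposed wells from 0.203 to 0.912 CPM, without overlap.

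Transcription factors were represented by MAF and ZNF652. MAF (ENSBTAG00000044192), or c-MAF, is a bZIP factor of tissue macrophages that drives IL10. It had the strongest 3 h response of the members with a symbol, -3.25 ± 0.50, and a like one at 18 h, -3.32 ± 1.06 (SD, n = 6 pairs). At 3 h the control wells held 11.5, 56.9 and 27.0 CPM in high and 5.98, 9.87 and 8.29 CPM in low responders, against 0.714, 3.39 and 3.06 CPM and 0.820, 1.09 and 0.767 CPM after exposure. At 18 h the control wells held 21.97, 19.8 and 60.4 CPM in high and 18.8, 4.90 and 9.87 CPM in low responders, and the exposed wells lay between 1.26 and 1.92 CPM. Control wells differed widely between cows and exposed wells hardly at 18 h, and the 2 kinds of well did not overlap at either hour. ZNF652 (ENSBTAG00000001919), a zinc finger repressor of transcription, had 9.96 TPM in control wells and responses of -1.98 ± 0.67 and -1.52 ± 0.58.

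HAS2, SLC26A2 and GCNT4 have roles in making or modifying sugar chains and are described together, but a shared theme was not tested. HAS2 (ENSBTAG00000019892), which makes the matrix sugar hyaluronan, stood in control wells at 3 h at 41.3, 25.7 and 20.2 CPM in high and at 29.5, 49.5 and 26.7 CPM in low responders, against 4.64, 1.63 and 5.94 CPM and 5.85, 8.14 and 5.45 CPM after exposure. At 18 h the control wells held 15.4, 16.8 and 11.8 CPM and 19.1, 20.04 and 12.6 CPM, and the exposed wells 1.16, 0.632 and 1.03 CPM and 2.84, 2.10 and 1.96 CPM. No exposed well reached a control well at either hour, and at 18 h the 3 exposed high responders were below the 3 exposed low responders. The response was -2.63 ± 0.74 at 3 h and -3.30 ± 0.67 at 18 h (SD, n = 6 pairs).

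SLC26A2 (ENSBTAG00000014615), the sulfate transporter that feeds the sulfation of proteoglycans, had responses of -1.83 ± 0.80 and -2.18 ± 0.67. GCNT4 (ENSBTAG00000002781), a glycosyltransferase that branches O-linked sugar chains, had responses of -1.84 ± 1.07 and -1.65 ± 0.59 (SD, n = 6 pairs). Its control wells at 3 h held 46.0, 54.8 and 6.28 CPM in high responders, the low value being that of the well coded 94. The same well was lowest of the 3 high responder controls for SLC26A2 (16.8 CPM beside 48.3 and 73.7) and for SLC36A1 (28.2 CPM beside 83.4 and 132), and the 3 h responses of that pair were -0.49, -0.55 and -0.57 for GCNT4, SLC26A2 and SLC36A1.

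SLC36A1 (ENSBTAG00000016094), a proton-coupled amino acid transporter of lysosomes and the cell surface, was abundant (71.0 TPM in control wells) and had responses of -1.79 ± 0.75 and -1.51 ± 0.60. PDK4 (ENSBTAG00000014069), the kinase that switches off pyruvate dehydrogenase and so spares glucose, ranged from 84.9 to 185.9 CPM in control wells at 3 h and from 17.1 to 32.3 CPM in exposed wells. At 18 h it ranged from 107 to 224 CPM in control wells and from 28.7 to 52.2 CPM in exposed wells. The exposed wells thus stayed below the control wells at both hours, with responses of -2.48 ± 0.67 and -1.71 ± 0.35 (SD, n = 6 pairs). FAM234B (ENSBTAG00000014322), a membrane protein, had responses of -2.13 ± 0.71 and -2.58 ± 0.85.

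**Figure D2:**
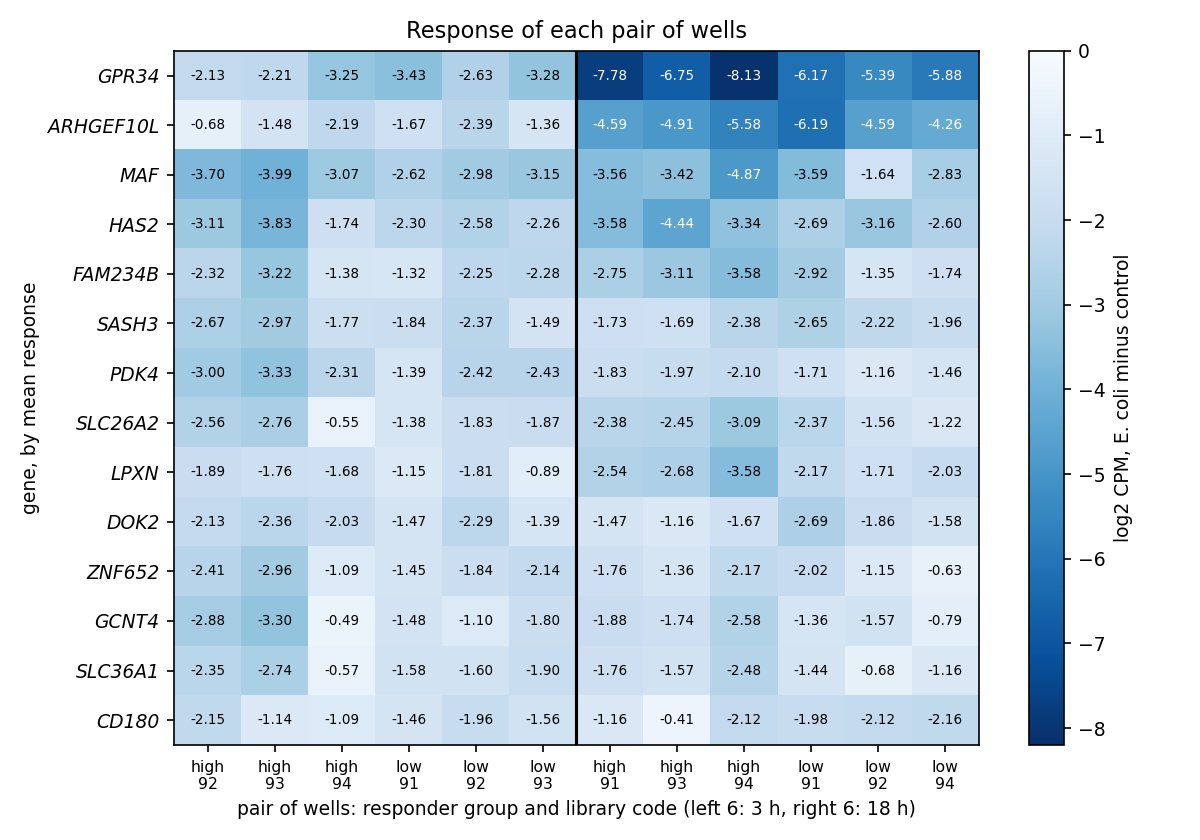
Rows are the 14 members with a symbol, ordered by mean response, and columns are the 12 pairs of wells, 6 at 3 h (left) and 6 at 18 h (right), labelled by responder group and library code. Each cell gives the response in log2 CPM, exposed minus control, and all are below 0, from -8.13 (GPR34, high responder 94, 18 h) to -0.41 (CD180, high responder 93, 18 h).

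**Figure D3:**
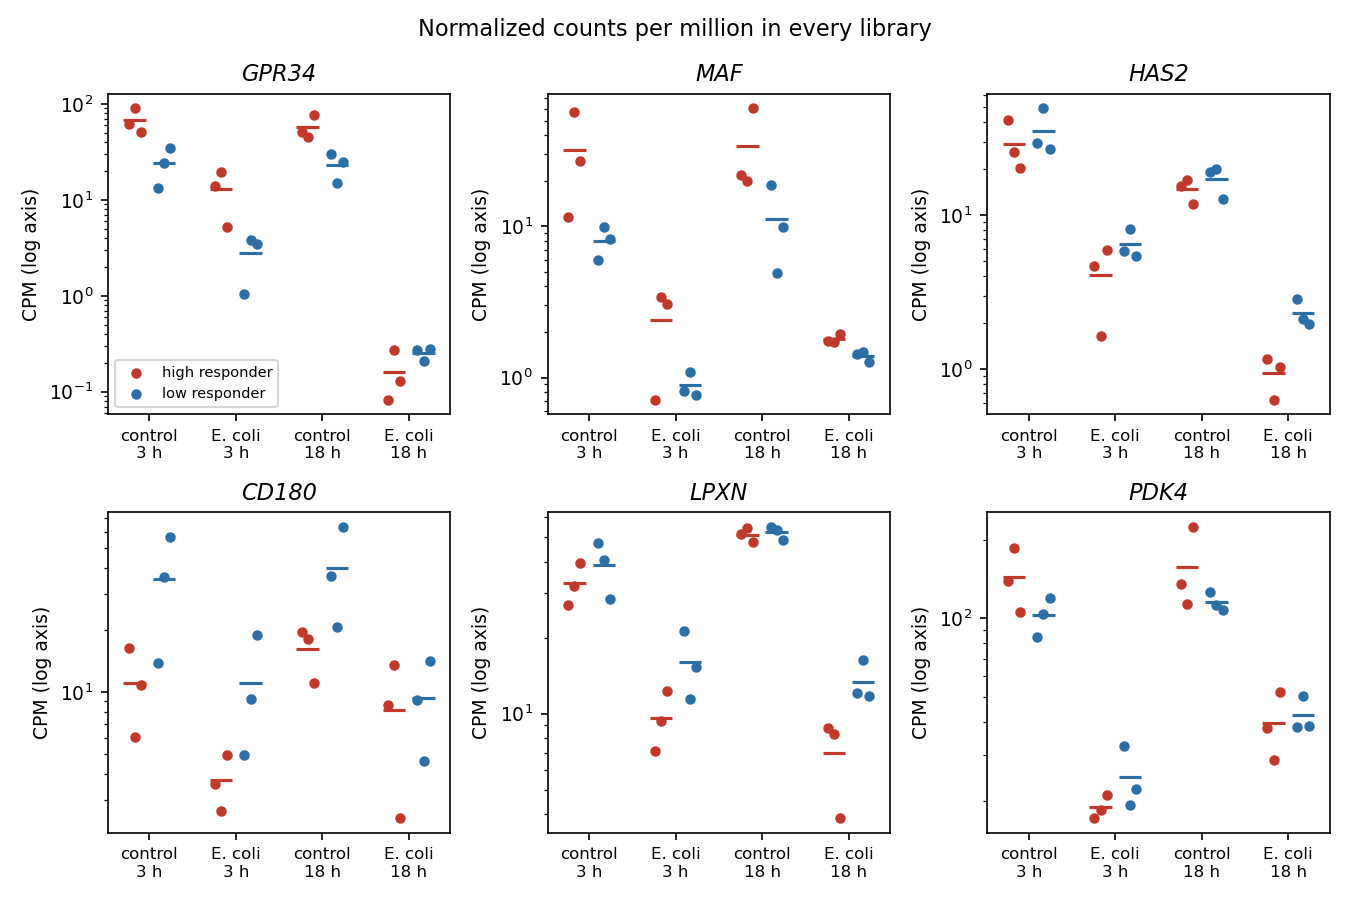
Points are normalized CPM (log axis) of 6 members in every library, by kind of well and hour, for high (red) and low (blue) responders, and bars are means of 3 libraries. Exposed wells lie below control wells in MAF, HAS2, LPXN and PDK4 at both hours, and the groups overlap in CD180 at both hours and in GPR34 at 3 h.

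The 37 members without a symbol had ranges that overlapped those of the members with a symbol. Their responses reached -3.59 at 3 h and ran from -5.55 to -1.56 at 18 h, and their control levels from 2.77 to 149.97 TPM, the most abundant of the 51 genes being 1 of them. ENSBTAG00000020433 had the second lowest mean response of all members, -3.36 at 3 h and -5.55 at 18 h. Its control wells at 18 h held 48.8, 45.1 and 41.3 CPM in high and 28.0, 13.02 and 39.2 CPM in low responders, and its exposed wells 1.40, 1.26 and 0.513 CPM and 0, 0.280 and 1.19 CPM. At least 1 exposed library had 0 counts in 1 member at 3 h and in 3 members at 18 h, so that the depth limits how low those levels could be read.

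Gene structure and level were close to those of other genes. A single annotated transcript was listed for 48 members (94.1%) and for 90.4% of the 9239 genes, and the median transcript length was 2137 and 2016 bases. The median control level was 20.1 TPM in members and 27.0 TPM in the 9239 genes, so that members were neither the rarest nor the most abundant transcripts. None of the 51 had fractional expected counts in any library, which RSEM gives where reads are shared between genes, while 507 of the 9239 genes had them. These properties were not tested.

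The threshold cut through a continuum. Just inside lay SLC36A1 (-1.51 at 18 h), ZNF652 (-1.52 at 18 h), LPXN (-1.53 at 3 h) and, closest of all, a gene without a symbol (-1.50019 at 3 h). Just outside lay CDC42EP3, an effector of the GTPase CDC42, with -1.497 at 3 h and -2.53 at 18 h, DAB2, an endocytic adaptor, with -1.46 and -4.37, and SLA, an adaptor that dampens receptor signalling, with -1.71 and -1.44.

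Gene lists of macrophage biology placed few members. Since identifiers could be matched in part only, and more often for genes that differed between responder groups, these counts describe the matched genes. Of 9 receptors of resting macrophages that were matched and had at least 5 CPM at both hours, GPR34 alone was a member. CCR1, a chemokine receptor, had -2.03 at 3 h and -0.08 at 18 h, and FCGRT, the neonatal Fc receptor, had -0.06 and -2.17, so that each passed the threshold at 1 hour. Of 10 lineage transcription factors that met both conditions, MAF alone was at or below -1.5 at either hour. PPARG, a lipid-sensing nuclear receptor, had 0.24 and -0.93.

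Other lists that held genes repressed at 18 h had 0 members. Members were 0.552% of the 9239 genes, so lists this short could hold 0 by that share alone. Of 36 matched genes of DNA replication and the cell cycle with at least 5 CPM at both hours, 0 had a response at or below -1.5 at 3 h. At 18 h 28 of them had one, and of 14 DNA repair genes 1 and 7 had one at 3 h and 18 h. Of 5 scavenger and phagocytic receptors 0 and 2 passed, among them MSR1, the class A scavenger receptor (-0.16 and -3.76). As a reference for the opposite direction, 14 of 14 such inflammatory genes were at or above 1.5 at 3 h and 12 of 14 at 18 h.

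The study asked whether cows that make more nitric oxide respond to E. coli differently. For the members, the difference of the response between responder groups (high minus low) was negative in 41 of 51 at 3 h and in 36 of 51 at 18 h, that is, towards a larger loss in high responders. Among all genes tested, 46.4% and 52.4% had a negative difference. The median difference over the members was -0.40 at 3 h and -0.43 at 18 h. Of genes repressed only at 3 h, 75% had a negative difference at 3 h and 59.1% at 18 h, and of genes repressed only at 18 h, 55.3% and 81.2% had one. Of genes induced at both hours, 7.86% and 9.61% had one. These shares were not tested. Within library codes 91 and 92 the median difference was -0.42 at 3 h and -0.36 at 18 h, and within codes 93 and 94 it was -0.48 and -0.61, each from 3 pairs with 1 pair in a responder group, so that these values have no replicate check.

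No member passed the test of this difference by edgeR's quasi-likelihood test (adjusted p below 0.05 and a fold change above 1.5), with 0 of 51 called at either hour. Of all genes tested, 0.178% were called at 3 h and 1.62% at 18 h. The unadjusted p was under 0.05 in 10 members at 3 h (12.7% of all genes) and in 14 at 18 h (17.6% of all genes), and DESeq2 called 1 member at each hour (1.68% and 3.38% of all genes tested). The smallest adjusted p of a member was 0.109 at 3 h and 0.101 at 18 h.

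LPXN had that smallest value at 18 h. Its response was -2.93 ± 0.56 in high and -1.97 ± 0.24 in low responders (SD, n = 3 pairs), a difference of -0.90 with an SE of 0.25 (edgeR, adjusted p = 0.101, with 0.0396 to 0.416 under the alternatives). PDK4 differed by -0.53 (edgeR adjusted p = 0.125), SLC36A1 by -0.85 (adjusted p = 0.130), GCNT4 by -0.87 (adjusted p = 0.142) and SLC26A2 by -0.93 (adjusted p = 0.154). HAS2 differed by -1.08 (SE 0.35, edgeR adjusted p = 0.151), and FAM234B by -1.16 (SE 0.45, adjusted p = 0.224). GPR34 differed by -1.87 (SE 0.60, edgeR adjusted p = 0.153), from exposed wells with so few counts that the size is poorly fixed. CD180 and DOK2 leaned the other way, with 1.04 (SE 0.32, edgeR adjusted p = 0.138) and 0.60 (SE 0.26, adjusted p = 0.273). In CD180 the low responders lost more, -2.09 ± 0.09 against -1.23 ± 0.85 in high responders (SD, n = 3 pairs), yet none of these differences passed the test.

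**Figure D4:**
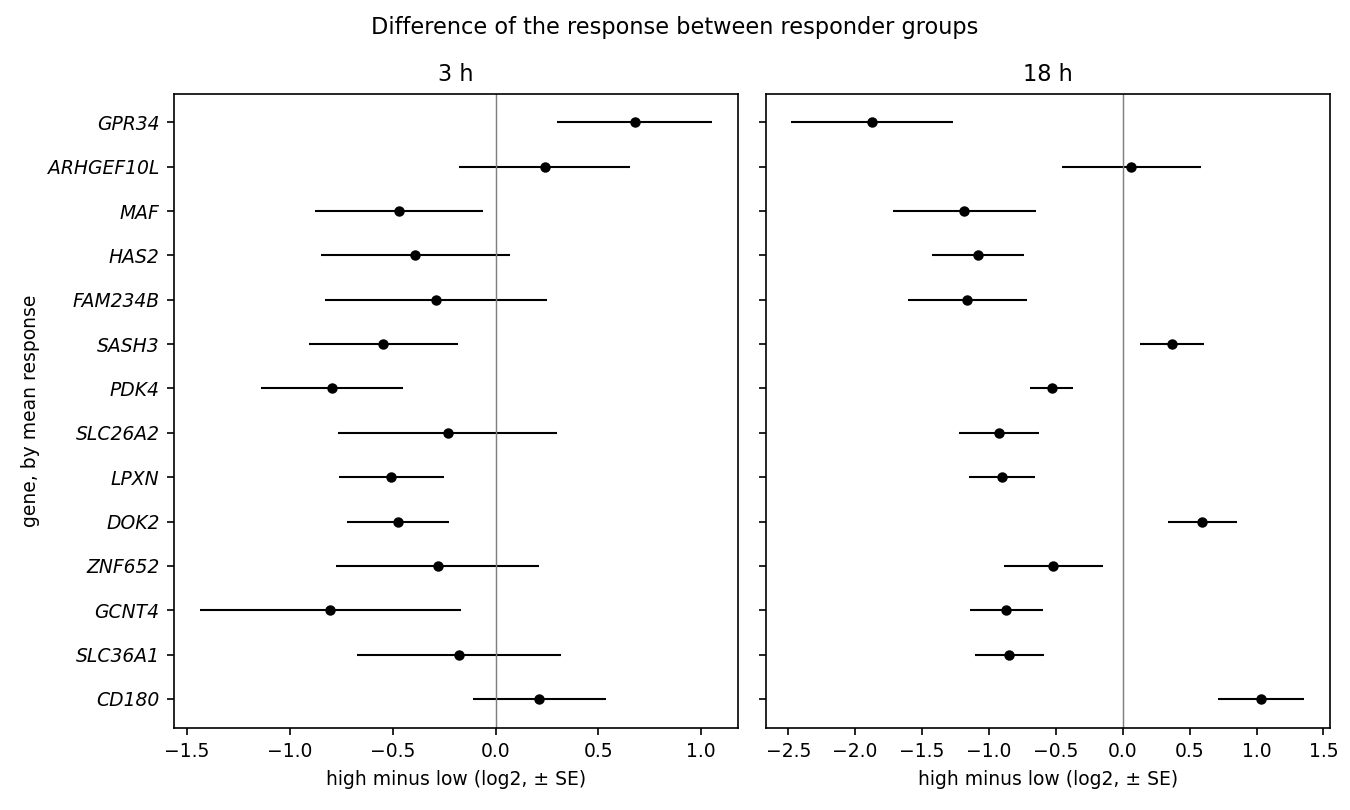
Points are the difference of the response between responder groups, high minus low, in log2 units at 3 h (left) and 18 h (right) for the 14 members with a symbol, and bars are 1 SE of the edgeR fit. At 18 h the points run from -1.87 (GPR34) to 1.04 (CD180), and 0 of them passed the test.

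At 3 h the outcome rested on 1 pair. Without high responder 94, 8 members were called (4.47% of all genes tested in that fit), 7 with a larger loss in high responders (GCNT4, PDK4, SLC26A2, SLC36A1, HAS2 and 2 genes without a symbol) and GPR34 with a smaller loss. PDK4 differed by -0.80 (SE 0.34, edgeR adjusted p = 0.387) with that pair and by -1.13 (adjusted p = 0.0380) without it, and its adjusted p ran from 0.0380 to 0.999 over the alternatives. At 18 h, CD180 was called without the high responder pair coded 94 at that hour (1.32, edgeR adjusted p = 0.0329, with 1.07% of all genes called in that fit). SLC26A2 was called without low responder 91 (-1.26, edgeR adjusted p = 0.0458, with 1.29% called). The high responder pairs coded 94 at 3 h and at 18 h carry different letters and are not known to be the same cow.

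Control wells alone leaned towards more of the members in high responders. The fitted level was higher in high responders in 39 of 51 members at 3 h (51.5% of all genes tested) and in 41 at 18 h (51% of all genes tested), with a median difference of 0.47 log2 units at each hour. This comparison and the difference of the response share the control wells. By edgeR 0 of 51 were called at either hour (background 0.00906% at 3 h and 0.15% at 18 h), the unadjusted p was under 0.05 in 15 (7.85% of all genes) and 22 (21.7%), and DESeq2 called 4 and 12 (2.18% and 6.09% of all genes tested). GPR34 stood above the 3 low responders in all 3 high responders at both hours, by 1.47 (SE 0.37, edgeR adjusted p = 0.284) and 1.304 (SE 0.30, adjusted p = 0.0781). MAF was higher by 1.97 (SE 0.53, edgeR adjusted p = 0.302) and 1.63 (SE 0.58, adjusted p = 0.168), and SLC36A1 at 18 h by 1.09 (SE 0.25, adjusted p = 0.0782). CD180 was lower in high responders, by -1.69 (SE 0.55, edgeR adjusted p = 0.427) and -1.32 (SE 0.41, adjusted p = 0.131). These outcomes depended on the method. DESeq2 called GPR34 at both hours (DESeq2 adjusted p = 0.0183 and 0.000607), MAF at 3 h (0.0154), and SLC36A1 and CD180 at 18 h (0.00104 and 0.0100).

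Exposed wells did not share this lean in the median. Exposed wells were tested for 46 members at 3 h and 44 at 18 h, since the others had too few counts, and the median difference was -0.17 and 0.07. Again 0 were called by edgeR (background 0.0839% and 0.0446%), the unadjusted p was under 0.05 in 11 (12.8% of all genes) and 9 (18.2%), and DESeq2 called 3 at each hour (2.61% and 5.69% of all genes tested). At 3 h GPR34 was higher in high responders by 2.22 (SE 0.58, edgeR adjusted p = 0.224) and CD180 lower by -1.57 (SE 0.49, adjusted p = 0.271). Of these 2, GPR34 was called by DESeq2 (DESeq2 adjusted p = 0.0116). At 18 h HAS2 was lower by -1.31 (SE 0.37, edgeR adjusted p = 0.139) and LPXN by -0.94 (SE 0.31, adjusted p = 0.183), with no overlap of the 3 high and 3 low responders in either. For 1 gene, such a separation of 3 from 3 has an exact two-sided permutation p of 0.1. The share of all genes with such a separation was not counted, here or for the other genes where it is given.

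ENSBTAG00000015745, without a symbol, had the smallest unadjusted p of any member in any of the 6 comparisons. In control wells at 18 h it held 147.9, 135.7 and 178.8 CPM in high and 99.5, 64.7 and 73.3 CPM in low responders, and in exposed wells 29.6, 38.9 and 30.4 CPM and 14.8, 16.7 and 17.8 CPM. High responders were above low responders in both kinds of well without overlap, by 0.95 (SE 0.18, edgeR adjusted p = 0.0662) in control wells and by 0.99 (SE 0.15, adjusted p = 0.0730) in exposed wells. The fitted difference of its response was 0.02 (SE 0.24, edgeR adjusted p = 0.979). In control and exposed wells the gene passed the threshold with DESeq2 (adjusted p = 0.000111 and 6.2e-05). It also passed with edgeR without a filter on low counts (adjusted p = 0.0450 and 0.0477). Under other alternatives the adjusted p reached up to 0.201 and 0.221.

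**Figure D5:**
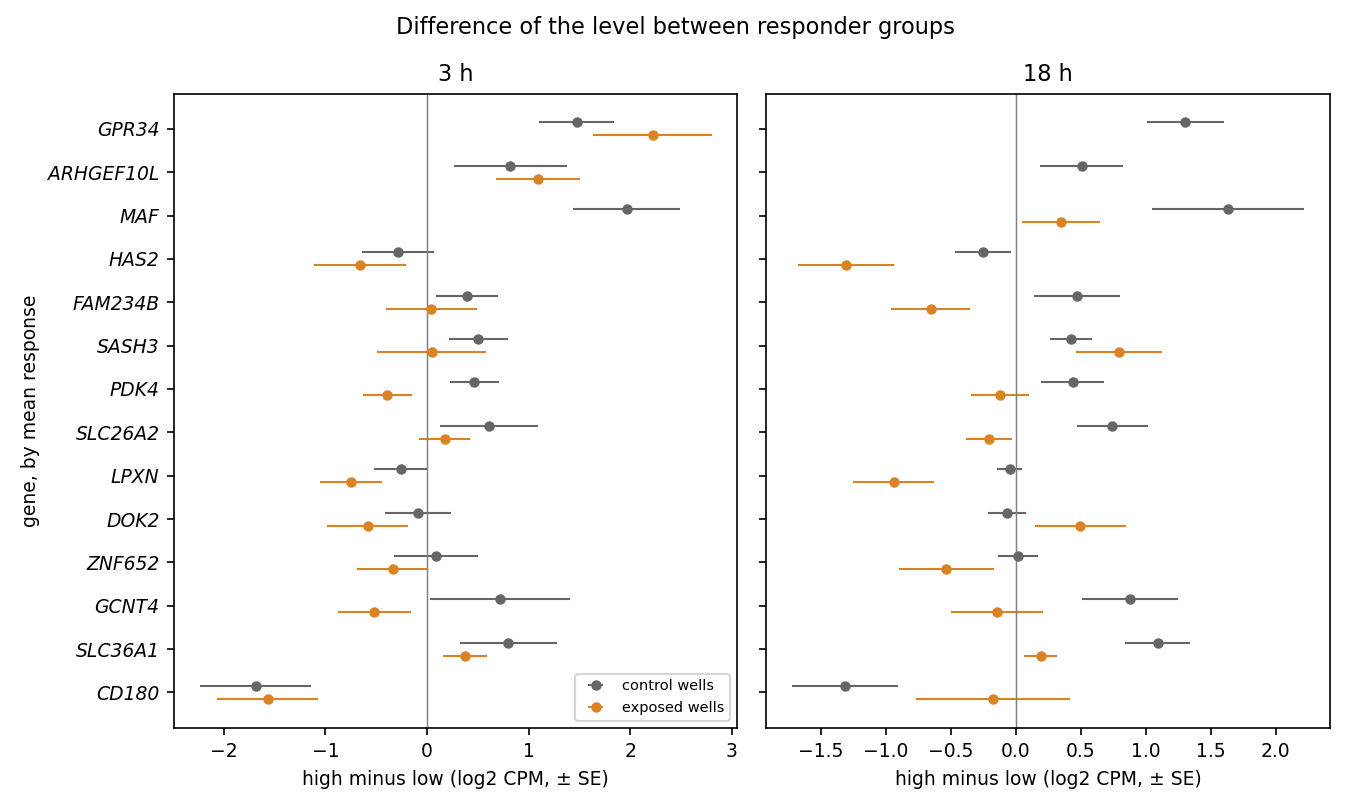
Points are the difference of the level between responder groups, high minus low, in log2 CPM at 3 h (left) and 18 h (right) in control wells (grey) and exposed wells (orange) for the 14 members with a symbol, and bars are 1 SE of the edgeR fit. GPR34 and MAF are higher and CD180 lower in control wells of high responders at both hours, 0 of the differences passed the edgeR test, and genes with too few counts in exposed wells have no orange point.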

How the data were processed

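The authors made stranded mRNA libraries from MDMs, cleaned the read pairs with Trimmomatic (quality check by FastQC 0.11.5), aligned them by STAR against the UMD 3.1 assembly, counted per gene by RSEM and used DESeq2 1.22.2 for their own tests. The deposited tables give expected counts (estimated, not normalized), TPM (relative to transcript length and library) and transcript lengths for 24616 genes in each of 24 libraries.

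Expected counts were rounded, scaled by TMM and turned into log2 CPM per hour (12 libraries, prior count of 2) with edgeR 4.0.16 in R 4.3.3. CPM printed per library are TMM-normalized. Exposed and control libraries with the same responder group, hour and code were paired: their deviations from the group means correlated between 0.403 and 0.804 in all 12 such pairs, and between -0.649 and 0.0962 for the 24 pairs of different numbers. Deviations within a group cancel out, so high values for the same number push those for different numbers down. The contrast between these ranges is therefore in part built in. Responder groups were compared with edgeR's quasi-likelihood test, as the difference of the response (a term for each cow, 12 libraries of an hour) and within control or exposed wells (6 libraries), with the Benjamini-Hochberg adjustment over all genes tested. A call needs an adjusted p below 0.05 and a fold change above 1.5. For 1 gene on its own, 3 cows against 3 allow an exact permutation p (two-sided) of 0.1 at the least. The fits were also run on simulated counts that carried no differences between cows, which does not check the pairing.

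The members and the gene lists were chosen with earlier results of these data known. All 14 members with a symbol are named. Members without a symbol are counted, and 2 are named by identifier, the one with the lowest mean response and the one with the smallest p. Symbols came from the study's listings of comparisons between responder groups, whose values were not used. Coordinates and sequences were not used here. The alternatives were RLE size factors, other prior counts, filters and thresholds, log2(TPM + 1), DESeq2 1.42.0, no term for the cow and leaving out each cow.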

Additional observations from a re-analysis of the deposited data

How the results depend on the processing

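The number of genes that met the rule was 51, and it was 48 with RLE size factors, 53 and 46 with prior counts of 0.5 and 5, 76 on log2(TPM + 1), where 46 members were kept, and 44 to 55 when 1 pair was left out. It was 78 without a minimum CPM, 27 with at least 20 CPM, 183 at a response of -1 and 15 at -2, and 56 with the 5 genes that reach 5 CPM at 1 hour only. In all 12 fits without a pair 35 members were kept. Without size factors the median response of all genes moved to -0.43 at 3 h and -0.19 at 18 h, and all 51 members stayed below 0. For the difference of the response, edgeR called 0 members, DESeq2 called 1 at 3 h (without a symbol) and 1 at 18 h (LPXN, which was also the 1 called without a filter on low counts), and leaving out a cow gave 0 to 8 at 3 h and 0 to 1 at 18 h. Without the pairing of wells by cow, that is with no replicate block, 0 were called at either hour, and the unadjusted p was under 0.05 in 5 and 6 members in place of 10 and 14. For control wells, DESeq2 called 4 members at 3 h and 12 at 18 h, and edgeR without a filter 3 at 18 h. For exposed wells, DESeq2 called 3 at 3 h and 3 at 18 h, and edgeR without a filter 1 at 18 h. The cause of these changes was not tested. None of the named differences with an unadjusted p under 0.05 changed direction under any alternative. Depth limits the exposed wells, where GPR34 held 16 expected counts in 6 libraries at 18 h.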
